A study of Arabidopsis thaliana with 4 samples.

Results

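Pseudogenes on the chromosome arms of Arabidopsis thaliana were followed on expression arrays of wild type seedlings and of the allantoinase mutant aln-1. A probe set was taken as a member when the array annotation gave it a single nuclear gene, when the RefSeq gene table classed that gene as a pseudogene or a transcribed pseudogene, and when its locus tag lay outside a window of locus tags around each centromere. This rule used no measured value and gave 259 of the 13286 genes with a probe set of their own in that table. Each of the 259 has 1 probe set, among 22746 on the array. Of these loci, 217 were classed as pseudogenes and 42 as transcribed pseudogenes, and the chromosomes from 1 to 5 held 75, 69, 45, 44 and 26 of them.

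Pseudogenes are copies of genes, or remnants of transposable elements, that have lost the capacity to make the protein of their parent. In plants many such loci are kept silent by DNA methylation and small RNAs, most heavily in the gene-poor regions around the centromeres, and transcripts that carry early stop codons can be removed by nonsense-mediated decay. Copies on the arms lie among active genes, and their transcripts, where present, can come from their own promoter or from a neighbour. The gene table gives a name beyond the locus tag to 5 members and a parent gene to none, so most members are named by locus tag here and no role is given to them.

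Both genotypes were in the Col-0 background and were grown aseptically on sucrose-containing solid medium in long days. The groups were wild type Col-0 and aln-1, a mutant allele of ALN, which encodes the allantoin-hydrolysing enzyme allantoinase, and the mutant accumulates allantoin. RNA came from the aerial parts of seedlings 2 weeks after germination, with 2 biological replicates per genotype and 1 array for each. The mutant is a single allele and no complemented line was analysed here. In such bulk tissue, fewer cells of a type and less RNA per cell cannot be told apart.

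Every value below is a log2 signal relative to the median of that probe set over the 4 arrays, so a value above 0 is above the probe set's own middle, and levels of different genes cannot be compared. Because of this centring, the inner wild type and inner aln-1 values of a probe set that separates the genotypes mirror each other. A difference is the aln-1 mean minus the wild type mean, with the standard error (SE) of the limma fit over all probe sets. Precision is limited by the small number of arrays, and signal over background is unknown. A brightness class was therefore read from the rounding step of the deposited numbers, which is coarser for larger signals. Steps of the dim class correspond to signals under 16, those of the bright class to 256 or more, and the dimmest array sets the class of a probe set. The class is approximate. Probe sets at 0 on all 4 arrays have no readable step and were counted as bright, among them 3 members. Where only some arrays were at 0, the class rests on the other values alone and is less certain. AT3G59860, at 2.97 on 1 wild type array and at 0 on the others, was classed as middle in this way.

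The ALN signal was 1.59 and 2.03 in the wild type arrays and -1.59 and -1.72 in the aln-1 arrays, so the genotypes did not overlap at the mutated gene (difference -3.46, SE 0.22, limma adjusted p = 0.0580, not past 0.05). The tissue label could not be checked by level. Of the leaf markers 4 of 6 were measured, with differences of -0.92 to -0.12, and of the root markers 3 of 3, with differences of 0.20 to 1.43, while 0 of the 4 flower and seed markers had a named probe set. The part of these markers in the results below was not tested.

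Arm pseudogenes lay about evenly on both sides of 0. Of the 259 members, 129 had a difference above 0, 127 below 0 and 3 at exactly 0. The median difference was 0.00, with the central 50% of members between -0.86 and 0.82, against a median of -0.08 over all probe sets. The median of the members was 0.11 and -0.08 on the wild type arrays and -0.03 and 0.00 on the aln-1 arrays, so the replicates of the wild type lay further apart than the genotypes.

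Single members moved over a wide range, from -7.23 to 4.73, but their replicates did too. The median within-genotype SD was 0.83 for the members and 0.22 for all probe sets. The wild type replicates differed by at least 2-fold for 123 members and the aln-1 replicates for 113, shares of 47.5% and 43.6%, against 13.6% and 14.2% of all probe sets. The members were also dimmer, with 192 in the dim class, 56 in the middle class and 11 in the bright class. These 192 were 74.1% of the members, while the dim class held 19.9% of all probe sets and 81.8% of the 730 pericentromeric pseudogenes. Within the dim class the replicate spread of members and of all probe sets was close, with median SDs of 0.94 and 0.95. The dimmest array sets the class, so a low replicate can both widen the spread and place a probe set there. The part of dimness in the spread of the members was not tested.

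**Figure D1:**
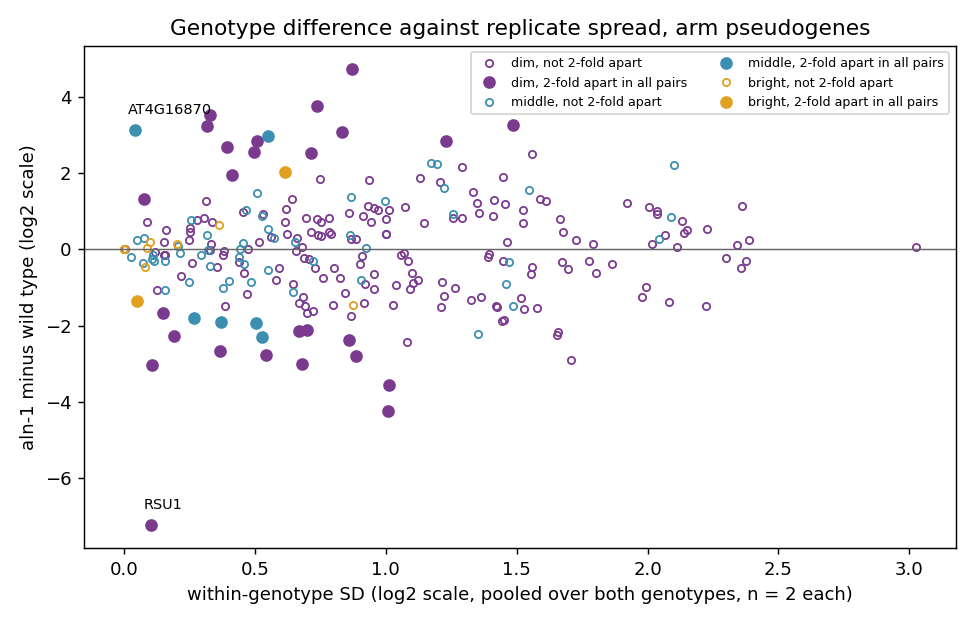
Each point is 1 of the 259 arm pseudogene probe sets, with the pooled within-genotype SD on the x axis and the aln-1 minus wild type difference on the y axis, both on the log2 scale. Colours give the brightness class, and filled points are members at least 2-fold apart in all 4 pairs of arrays. The labelled RSU1 at -7.23 and AT4G16870 at 3.13 combine large differences with a small spread. So does AT1G31210, which is not labelled, at -3.04 with an SD of 0.11.

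Fitted with all probe sets in limma, 2 members passed an adjusted p of 0.05: the transcribed pseudogene RSU1 fell and the pseudogene AT4G16870 rose. That is 2 of 259, or 1 in each direction, where 0.255% of all probe sets passed, 0.154% higher and 0.101% lower in aln-1. At an unadjusted limma p under 0.05 there were 48 members, or 18.5%, against 23.4% of all probe sets.

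RSU1 (AT3G48130, chromosome 3) was the member with the largest difference. Its values were 3.56 and 3.77 in wild type and -3.56 on both aln-1 arrays. The genotypes lay far apart and each pair of replicates lay close together. The wild type mean was 3.67 ± 0.15 and the aln-1 mean -3.56 ± 0.00 (SD, n = 2 each). The difference of -7.23 (SE 0.15) had a limma adjusted p of 0.0459. The aln-1 values were exactly equal and were its lowest. The labels do not say whether the signal had a lower limit, and with one the difference is a bound. With such a limit the aln-1 SD of 0.00 need not reflect replicate precision. The SE and the limma adjusted p rest partly on that SD. RSU1 was in the dim class, which may reflect its aln-1 arrays alone, since the dimmest array sets the class.

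Measured genes next to RSU1 differed little. AT3G48120, the gene before it by locus tag, was at -0.06 and 0.01 in wild type and at 0.08 and -0.01 in aln-1 (difference 0.06, SE 0.13). AT3G48140, which lies 2 places after RSU1, differed by -0.05 (SE 0.16). Among the other measured genes within 10 places, AT3G48080 differed by 0.78, AT3G48185 by 0.63, ALDH10A9, an aldehyde dehydrogenase gene, by -0.21 and AT3G48070 by -0.14, and 0 of the 6 measured genes around RSU1 were 2-fold apart in all pairs of arrays.

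AT4G16870 (chromosome 4) had close replicates in both genotypes. Its values were -1.54 and -1.57 in wild type and 1.54 and 1.61 in aln-1. Both aln-1 arrays lay about 3 log2 units above both wild type arrays, with group means of -1.55 ± 0.02 and 1.57 ± 0.05 (SD, n = 2 each). The difference was 3.13 (SE 0.13), or 8.74-fold, with a limma adjusted p of 0.0471. The probe set was in the middle class and held no equal values.

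AT4G16870 lies in the RPP5 cluster of immune receptor genes, and the measured genes around it differed in both directions. AT4G16880, the next gene, was at -0.43 and -1.32 in wild type and 1.18 and 0.43 in aln-1, a difference of 1.68 (SE 0.47, limma adjusted p = 0.177). AT4G16900, 4 places further on and a disease resistance gene, rose by 5.98 (SE 0.20, limma adjusted p = 0.0471), and AT4G16850, 4 places before, differed by 2.11 (SE 0.16, limma adjusted p = 0.0681). The other arm pseudogene of this stretch, AT4G16910, directly follows AT4G16900. It was at 0.04 and -0.21 in wild type and -0.04 and 1.51 in aln-1, so its genotypes overlapped (difference 0.82, SE 0.62). Beyond it, AT4G16920 and AT4G16930 differed by -0.12 (SE 0.21) and -0.04 (SE 1.30), and before AT4G16850 the genes AT4G16840 and AT4G16830 differed by -0.82 and 0.74.

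Both limma calls depended on all 4 arrays being present. Without any 1 of the 4 arrays, 0 members passed, with the smallest adjusted p among members between 0.176 and 0.289 and with 51 to 59 members at an unadjusted limma p under 0.05. The differences themselves hardly moved, from -7.33 to -7.12 for RSU1 and from 3.09 to 3.17 for AT4G16870. With a robust variance prior 0 members passed and the smallest limma adjusted p was 0.0512, with 44 members at an unadjusted p under 0.05. Shares of all probe sets under these settings are not given here, so these counts describe the members alone.

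A count without a model took the members whose aln-1 and wild type arrays were at least 2-fold apart in each of the 4 pairings. It held 34 members, 16 higher and 18 lower in aln-1. That is 13.1% of the members, where 8.21% of all probe sets were 2-fold apart, 4.67% higher and 3.54% lower. With no size limit the genotypes did not overlap for 104 members, or 40.2%, against 60.1% of all probe sets. Leaving out 1 array leaves fewer pairs to satisfy, for all probe sets as for the members. The count rose to 76 with the first wild type replicate left out and to 78 with the second. It was 78 and 64 with the first or the second aln-1 replicate left out. The matching shares of all probe sets are not given here, so these counts with an array left out do not compare members with the array. With a 3-fold limit and all arrays kept, the count was 21, or 8.11%, against 3.80% of all probe sets.

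**Figure D2:**
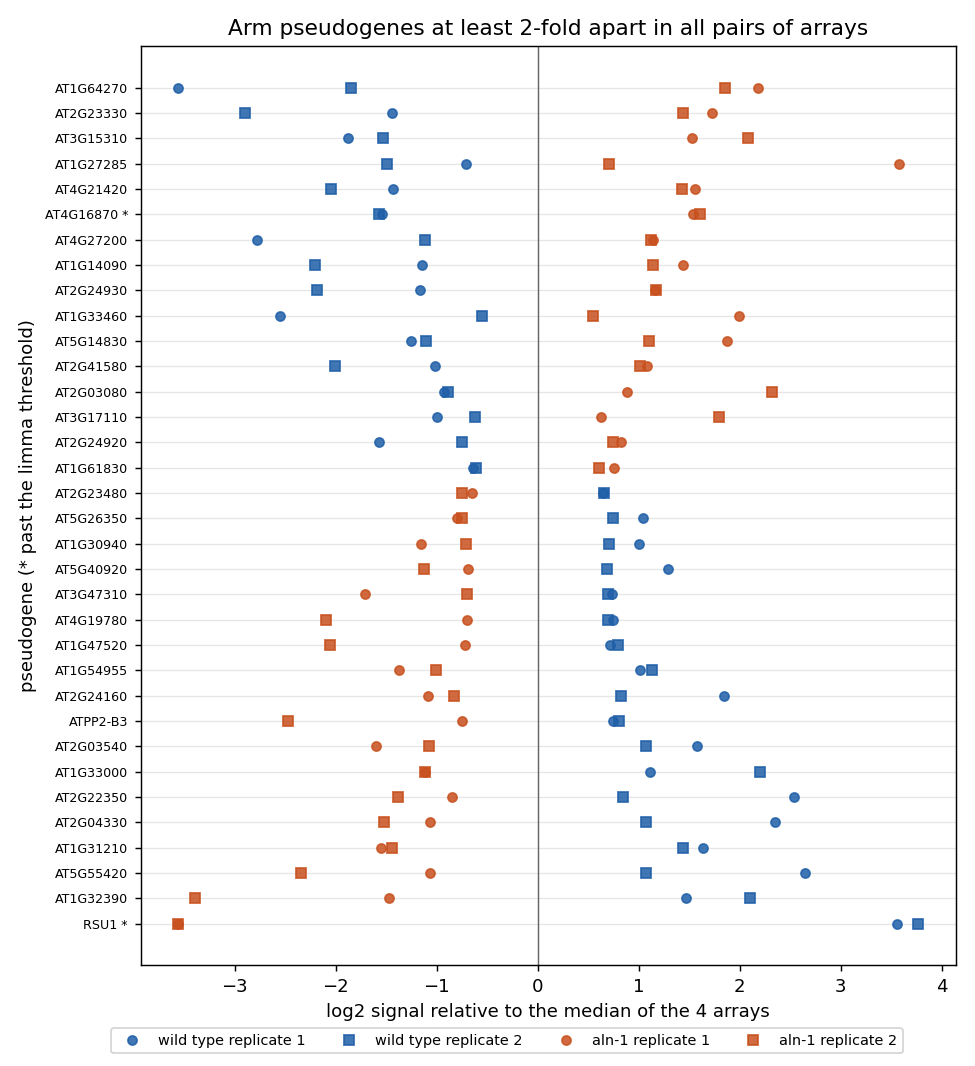
The 34 arm pseudogenes that were at least 2-fold apart in all 4 pairs of arrays are drawn from top to bottom, with the log2 signal relative to the median of the 4 arrays on the x axis, wild type in blue and aln-1 in orange (circles replicate 1, squares replicate 2). They run from AT1G64270 at the top, with a difference of 4.73, to RSU1 at the bottom, with -7.23, and many of them have replicates more than 1 unit apart.

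Shares of separated members by brightness class are a description only. The dimmest array sets the class, so a large difference can itself place a probe set in the dim class. In the dim class 26 of 192 members were 2-fold apart, or 13.5%, against 14.4% of all dim probe sets and 14.5% of the dim protein-coding genes on the arms. In the middle class the shares were 10.7% of 56 members and 9.68% of all probe sets. In the bright class 2 of 11 members were apart, against 4.33% of all probe sets, and 3 of these 11 were at 0 on all 4 arrays. Among pericentromeric pseudogenes 88 of 730 were 2-fold apart, or 12.1%, with 49 higher and 39 lower, and 5 passed in the limma test. The difference between arm and pericentromeric pseudogenes was not tested.

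**Figure D3:**
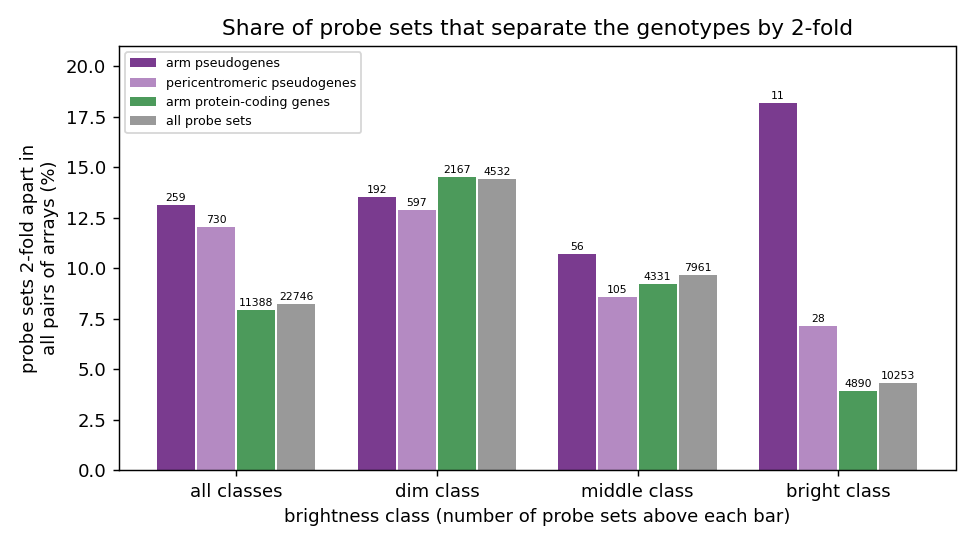
Bars give the percentage of probe sets at least 2-fold apart in all 4 pairs of arrays, for arm pseudogenes, pericentromeric pseudogenes, arm protein-coding genes and all probe sets, over all classes and within each brightness class; the number above a bar is the number of probe sets. Over all classes the pseudogene bars stand at 13.1% and 12.1% above the 8.21% of all probe sets, while in the dim class the bars of all groups lie between 12.9% and 14.5% and the bright bar of arm pseudogenes, at 18.2%, rests on 2 of 11.

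None of the other 32 members that were 2-fold apart passed the limma threshold. Those higher in aln-1 were led by AT1G64270, at -3.56 and -1.85 in wild type and 2.18 and 1.85 in aln-1 (difference 4.73, SE 0.69, limma adjusted p = 0.0977). AT2G23330 was at -1.44 and -2.89 in wild type and 1.73 and 1.44 in aln-1 (difference 3.75, SE 0.59). AT3G15310 was at -1.88 and -1.53 in wild type and 1.53 and 2.08 in aln-1 (difference 3.51, SE 0.28, limma adjusted p = 0.0698). For the first of these the wild type replicates lay 1.71 apart, against 0.35 for those of AT3G15310, whose aln-1 replicates lay 0.56 apart.

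AT4G21420 was likewise tight, at -1.43 and -2.05 in wild type and 1.56 and 1.43 in aln-1 (difference 3.24, SE 0.28, limma adjusted p = 0.0721). AT1G27285 had a difference of the same size, 3.24, but its aln-1 arrays were at 3.58 and 0.71, against -0.71 and -1.49 in wild type (SE 1.16). AT4G27200 was at -2.78 and -1.12 in wild type and 1.15 and 1.12 in aln-1 (difference 3.08, SE 0.66). The aln-1 replicates of AT4G27200 nearly coincided, and its probe set is of the type marked as shared between similar transcripts.

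AT1G14090, a transcribed pseudogene in the middle class, was at -1.14 and -2.20 in wild type and 1.44 and 1.14 in aln-1 (difference 2.96, SE 0.44). AT1G33460 was at -2.55 and -0.55 in wild type and 1.99 and 0.55 in aln-1, a difference of 2.82 with an SE of 0.96. AT1G33460 thus cleared the 2-fold rule only narrowly on its inner arrays. The remaining members on the higher side were AT5G14830 at 2.68, AT2G41580 at 2.56, AT2G03080 at 2.52, AT3G17110 at 2.02 and AT1G61830 at 1.31, beside the pair AT2G24930 and AT2G24920 described with the neighbours.

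On the lower side, AT1G31210 came closest to a call after RSU1. It was at 1.64 and 1.44 in wild type and -1.55 and -1.44 in aln-1 (difference -3.04, SE 0.15, limma adjusted p = 0.0504). With arrays centred on their medians, or with probe sets at equal values left out, it passed, with limma adjusted p of 0.0474 and 0.0496. AT1G31220, the gene after it, differed by -0.03 (SE 0.31) and turned to 0.02 with arrays centred on their medians.

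Larger or similar differences on the lower side came with a wider replicate spread. AT1G32390 was at 1.47 and 2.10 in wild type and -1.47 and -3.40 in aln-1 (difference -4.22, SE 0.79), from a probe set of the shared type. AT5G55420, a transcribed pseudogene, was at 2.65 and 1.07 in wild type and -1.07 and -2.34 in aln-1 (difference -3.56, SE 0.79). AT2G04330 was at 2.35 and 1.07 in wild type and -1.07 and -1.52 in aln-1 (difference -3.01, SE 0.54). In these 3 members the genotypes were apart by over 2 log2 units at their nearest arrays, and their limma adjusted p lay between 0.119 and 0.145.

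AT2G22350 was at 2.54 and 0.85 in wild type and -0.85 and -1.38 in aln-1 (difference -2.80, SE 0.70). AT1G33000 was at 1.11 and 2.20 in wild type and at -1.11 on both aln-1 arrays (difference -2.77, SE 0.44). AT2G03540 was at 1.58 and 1.07 in wild type and -1.60 and -1.07 in aln-1 (difference -2.67, SE 0.31, limma adjusted p = 0.0860). AT1G33000 is the only separated member besides RSU1 with equal lowest values on both arrays of a genotype, and the same reading as a possible bound applies.

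ATPP2-B3, a transcribed pseudogene named after the phloem protein 2 family of lectins, was at 0.75 and 0.81 in wild type and -0.75 and -2.47 in aln-1 (difference -2.39, SE 0.68, limma adjusted p = 0.182). AT2G24160 was at 1.85 and 0.83 in wild type and -1.08 and -0.83 in aln-1 (difference -2.29, SE 0.43). The wild type replicates of ATPP2-B3 agreed within 0.06, while its aln-1 replicates were 1.72 apart. The remaining 8 members on the lower side, AT1G54955, AT1G47520, AT4G19780, AT3G47310, AT5G40920, AT1G30940, AT5G26350 and AT2G23480, had differences from -2.26 to -1.35.

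The other 3 members with a gene symbol were not 2-fold apart in all pairs. CYTOSLEEPER, whose name marks it as related to the DAYSLEEPER gene derived from a hAT transposase, was at -0.25 and -0.26 in wild type and 0.25 and 0.76 in aln-1 (difference 0.76, SE 0.24). CYP71B27 and CYP51G2 carry names of cytochrome P450 families, enzymes that oxidise small molecules. CYP71B27 was at -0.11 and -0.34 in wild type and 0.11 and 0.55 in aln-1 (difference 0.56, SE 0.23). CYP51G2 was at -0.03 and -1.97 in wild type and 0.03 and 0.50 in aln-1 (difference 1.26, SE 0.78). In all 3 both aln-1 arrays were above both wild type arrays, but for CYP51G2 only narrowly at the nearest arrays.

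Few members were bright, and 3 of the 11 in that class were at 0 on all 4 arrays and had no readable step. Of the other 8, AT2G23480 was at 0.65 and 0.65 in wild type and -0.65 and -0.75 in aln-1 (difference -1.35, SE 0.13, limma adjusted p = 0.0796). AT3G17110, a transcribed pseudogene, was at -0.99 and -0.62 in wild type and 0.62 and 1.79 in aln-1 (difference 2.02, SE 0.49). AT3G14800 was at 0.24 and 0.18 in wild type and -0.18 and -0.33 in aln-1 (difference -0.46, SE 0.14). The replicates of AT2G23480 were closer than those of any other separated member except AT4G16870, and its probe set carries the suffix for probes that may also bind related transcripts.

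Equal values were more frequent among members than among all probe sets, but less frequent than among pericentromeric pseudogenes. Exactly equal values on arrays of the same probe set occurred in 27 members, or 10.4%, against 1.99% of all probe sets. Among pericentromeric pseudogenes the share was 18.8%, and within the dim class it was 10.9% of members and 7.99% of all probe sets. Equal lowest values on both arrays of a genotype were found in 13 members for aln-1 and in 3 for wild type. Members in which an array of the other genotype held the same lowest value are included, so the counts do not give falls in 1 genotype. AT3G59860, counted for aln-1, was at 0.00 and 2.97 in wild type and at 0.00 on both aln-1 arrays. AT4G20510, counted for wild type, was at 0.00 on both wild type arrays and at 0.50 and 0.00 in aln-1. Over all probe sets these counts were 118 for aln-1 and 104 for wild type, and among pericentromeric pseudogenes 30 and 37. With the 27 members left out, 32 of the remaining 232 were 2-fold apart, or 13.8%. With equal values kept, 13.1% of the members and 8.21% of all probe sets were. The share of all probe sets with equal values left out is not given here.

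Separated members were counted by annotation class, probe type and chromosome, where 8.21% of all probe sets were 2-fold apart. Of the 42 transcribed pseudogenes 9 were 2-fold apart, 3 higher and 6 lower, or 21.4%, and of the 217 other pseudogenes 25 were, 13 higher and 12 lower, or 11.5%. The transcribed pseudogenes had a median within-genotype SD of 0.54 against 0.87, and 22 of them were in the dim class. Plain probe sets made up 212 of the 259 members, and 27 of these were 2-fold apart, 13 higher and 14 lower. That is 12.7%, against 8.07% of all plain probe sets. By chromosome the counts of separated members were 11 of 75, 11 of 69, 4 of 45, 4 of 44 and 4 of 26 from chromosome 1 to 5. Whether these subsets differ was not tested.

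The locus tag windows that set the arms apart have 10 borders, with the members outside them. The member nearest to each border had a difference between -1.67 for AT5G26350 (SE 0.17) and 1.90 for AT4G09540 (SE 1.13), and 1 of these 10, AT5G26350, was 2-fold apart in all pairs of arrays. AT4G09540 was at 0.01 and -2.64 in wild type and -0.01 and 1.17 in aln-1, so its genotypes overlapped, and with 1 array left out its difference was 0.57 to 3.22. The pericentromeric pseudogenes nearest to the same borders ranged from -2.18 for AT4G03530 to 3.76 for AT4G09480, and 2 of 10 were 2-fold apart. With 1 array left out, AT4G03530 was at -3.34 to -1.02 and AT4G09480 at 2.03 to 5.49.

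Adjacent genes were compared because a pseudogene on an arm can share transcription with its neighbour. By locus tag order 155 members had a directly adjacent gene with a single-gene probe set, in 191 pairs counted from the pseudogene's side. Where both genes were members, the pair enters from each side, so the 191 pairs are not all distinct. Differences of pseudogene and neighbour correlated weakly across the 191 pairs (Pearson r = 0.14, Spearman rho = 0.13), on values that share the same 4 arrays. Beside members that were 2-fold apart, 2 of 23 neighbours were 2-fold apart too, and beside the others 21 of 168 were, shares of 8.70% and 12.5%.

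Those 2 are 1 pair seen from both sides, AT2G24930 and AT2G24920, adjacent pseudogenes on chromosome 2. AT2G24930 was at -1.16 and -2.18 in wild type and at 1.16 and 1.17 in aln-1 (difference 2.84, SE 0.41, limma adjusted p = 0.0979). AT2G24920 was at -1.57 and -0.75 in wild type and 0.83 and 0.75 in aln-1 (difference 1.95, SE 0.34, limma adjusted p = 0.117). Both were higher in aln-1, both were dim, and the AT2G24920 probe set is of the type marked as able to bind related transcripts, so the signals need not be independent.

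Other separated members stood next to genes that were not 2-fold apart in all pairs. Over the 23 pairs with a separated member, neighbour differences ran from -1.27 to 2.84, with a median of -0.03. The highest of these is AT2G24930, named above, and the genes given next are a part of the 23. Beside AT1G64270, AT1G64260 differed by 0.22, beside AT4G21420, B160 by -0.62, and beside AT4G27200, AT4G27190 by -0.05. Beside AT1G27285, AT1G27290 differed by 0.31, beside AT1G33460, AT1G33470 by -0.22, and beside AT2G03540, AT2G03550 by -0.30. AT2G41570, a pseudogene next to AT2G41580, differed by 1.88 (SE 0.88), in the same direction as the 2.56 of its neighbour, but its aln-1 arrays were at 0.16 and 2.08.

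The converse was seen where a neighbour differed strongly and the pseudogene did not. AT3G48640 was at 4.05 and 3.19 in wild type and -3.19 and -5.13 in aln-1 (difference -7.78, limma adjusted p = 0.0825). The pseudogene after it, AT3G48650, was at 2.14 and -1.42 in wild type and 1.42 and -1.67 in aln-1, so its genotypes overlapped (difference -0.49, SE 1.83). AT4G20480 differed by 5.42 (limma adjusted p = 0.0554), while AT4G20490 after it differed by -0.48 (SE 0.48). AT4G11210 and the pseudogene before it, AT4G11200, had differences of 2.21 and 2.20, but AT4G11200 owed its value to wild type replicate 2, at -4.08 against 0.08 in wild type replicate 1.

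**Figure D4:**
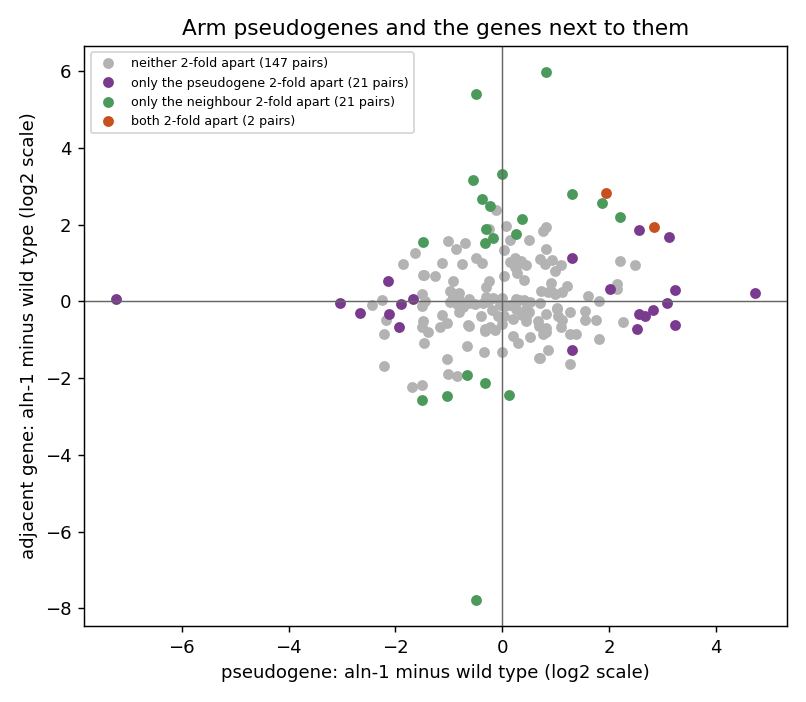
Each point is a pair of an arm pseudogene (x axis) and a directly adjacent gene with a probe set of its own (y axis), both as aln-1 minus wild type differences on the log2 scale, for 191 pairs. Orange points are pairs in which both were 2-fold apart in all pairs of arrays, which is AT2G24930 with AT2G24920 seen from both sides, and most pseudogenes with large differences lie near 0 on the y axis.

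The machinery that silences such loci or degrades their transcripts was covered only in part by named probe sets. Of 34 genes of DNA methylation and transcriptional silencing 1 was measured, DME, which encodes a DNA glycosylase that removes methylated cytosine. The 3 probe sets of DME differed by 0.14 (SE 0.24), -0.63 (SE 0.23) and -0.40 (SE 0.15), and 0 passed in the limma test. Of the 15 genes of nonsense-mediated decay and RNA turnover that matched the table by locus and symbol, 2 were measured. UPF3, a factor of nonsense-mediated decay, differed by -0.24 (SE 0.18) and RRP41, a subunit of the exosome that degrades RNA, by 0.04 (SE 0.13). The other 3 loci of this list carry no symbol in the table and were left out of that count, but had probe sets. AT1G54440 differed by -0.68 (SE 0.24), AT2G39260 by -0.28 (SE 0.14) and AT3G46960 by -0.24 (SE 0.16). In the limma test 0 of these 5 genes passed, also at an unadjusted p under 0.05. Of 7 genes of small RNA silencing after transcription 0 had a named probe set.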

How the data were processed

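The deposited table held log2 values for 22746 probe sets on 4 ATH1-type arrays, 2 per genotype, grouped by title. Per the submitters' processing notes the signals were made with MAS5; the sources used here do not give its version, scaling, any lower limit or the step to logarithms. The middle pair of each probe set's values summed to 0 within 1.4e-06, so the deposited log2 values are centred on each probe set's median, and base 2 was inferred from rounding steps. All probe sets were fitted on genotype and tested two-sided with limma 3.58.1 in R 4.3.3 (lmFit, eBayes, Benjamini-Hochberg over all probe sets, threshold 0.05), without filter or pseudocount, and the code was tested on simulated data. A two-sided permutation test of 2 against 2 arrays cannot go below 0.333, so none is given. Of the probe sets 13513 had 1 gene, 503 several and 8730 were not listed; 13436 matched the RefSeq table (TAIR10.1), used for names, classes and order only. Members and lists were chosen with earlier results of these data known. Named are members past the threshold, the 10 highest and 10 lowest of the separated members, their adjacent genes, ALN, genes at window borders and measured list genes; the table gave no family with 3 or more members. Other separated members, members with symbols, bright members, 3 list loci without a symbol and strongly differing neighbours were named after their values were seen. Same-numbered arrays were not paired by the labels. Alternatives were array centring, each array left out, the replicate number as a block, variance priors, equal values, dim probe sets, thresholds and probe type.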

Additional observations from a re-analysis of the deposited data

How the results depend on the processing

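The 2 limma calls became 0 with the replicate number as a block (53 members at an unadjusted p under 0.05), with a robust prior (44), at an adjusted p of 0.01 (48) and without any 1 of the 4 arrays (0 to 0; 51 to 59). They became 5 with priors fitted within brightness classes, 4 without the dim class and 14 at an adjusted p of 0.1. The counts of members in this paragraph stand without the matching shares of all probe sets, so they do not compare members with the array. Same-numbered arrays did not deviate together (correlation 0.0209 across probe sets, which are not independent), and the block costs degrees of freedom, as does leaving out an array, where the lone array is assumed to vary like the other genotype. AT4G16870 passed with brightness priors, without the dim class, with median centring and without equal values; RSU1 passed with brightness priors and with median centring and was not tested in the others. The count of 34 separated members was 64 to 78 when 1 array was dropped and fewer pairs counted, 21 with a 3-fold limit, 34 with median centring, 27 on plain probe sets, and 32 without equal values, the last chosen after seeing the data. The median difference of 0.00 was -0.18 to 0.16 when 1 array was dropped. Over 85 named probe sets and 797 pairs of a probe set and an alternative, 734 had the same direction and call. Of the others, 18 gained a call, 18 lost it and 27 turned. The 34 separated members could not turn under these alternatives, since the 2-fold rule that chose them already fixes their direction. Those that turned, with their range over the arrays left out, were AT1G31220 (-0.39 to 0.33), AT1G34080 (-0.95 to 2.81), AT1G44840 (-0.37 to 2.94), AT2G03550 (-0.63 to 0.038), AT2G04490 (-0.29 to 0.27), AT2G04580 (-1.31 to 0.17), AT2G16010 (-2.37 to 1.90), AT3G27450 (-0.37 to 0.40), AT3G28160 (-1.57 to 1.65), AT3G48650 (-2.26 to 1.29), AT4G02490 (-2.76 to 0.21), AT4G20490 (-1.01 to 0.045), AT4G27190 (-0.20 to 0.11), AT5G37880 (-2.01 to 0.49), AT5G38035 (-0.19 to 0.88) and a DME probe set (-0.051 to 0.33). With median centring AT1G31220 was at 0.024, AT2G04490 at 0.042 and AT4G27190 at 0.0088. For the remaining changes the cause was not tested. Signal over background is unknown, and the dim members had the widest replicate spread of the brightness classes. The cause of that spread was not tested.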
